A study of Acipenser sinensis with 45 samples.

Results

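The difference between gonad and pituitary was compared between males and stage I fish of the Chinese sturgeon, Acipenser sinensis, in 24 of the 45 libraries of the series. Males in stage II gave gonads (MG) and pituitaries (MP), and stage I fish whose sex was not determined gave gonads (UG) and pituitaries (UP), with 6 fish in each stage and both tissues from the same 12 fish. The males were over 4 years old and the stage I fish 1 year old, all of an artificial breeding population and sequenced on the same platform. Stage, age and sex therefore change together between them and cannot be told apart. By the study's list of libraries, base quality was higher in the gonads of stage I fish 1 to 4 than in the rest of the 24. In the pituitary, every stage I library had a higher base quality than every male library, so base quality changes with the stage there too. The gonad library of stage I fish 1 had the fewest reads after filtering of the 24. What these differences do to the comparison was not tested. The labels name no treatment for any group, and the fish were euthanized for sampling. Hypothalami of the same 6 males (MH) and 6 stage I fish (UH), and gonads (FG) and pituitaries (FP) of 3 stage II females over 4 years old, serve as further readouts. The quantity followed is an interaction, (MG − MP) − (UG − UP), on log2(FPKM + 1). FPKM is the number of fragments of a unigene scaled to its length and to the mapped fragments of the library, and a unigene is a transcript assembled from the reads without a genome. A positive interaction means that the gonad stood higher relative to the pituitary in males than in stage I fish.

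In the reproductive axis of fishes, hypothalamic peptides act on the pituitary, whose gonadotropins travel in the blood to the gonad. The gonad answers with germ cell development and with sex steroids, which act back on the brain and the pituitary. The pituitary makes a few protein hormones at very high levels, while a testis that has entered development holds spermatogonia and supporting somatic cells. In tissue pieces of this kind, fewer cells of a type and less RNA per cell cannot be told apart.

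In the expression table the unigenes carry identifiers only. The study matched most of them to public sequence databases, but that annotation was not used here. RefSeq lists 78555 genes for this sturgeon (assembly CSRI_AciSin_1.0), and 0 of the 121952 identifiers were among them. The tissues therefore could not be checked against marker genes here, and no function is given for any unigene. The library most correlated with each of the 24 libraries was of its own group (24 of 24). This held for the pituitary library of male fish 4 too, whose sample code gives pituitary while its tissue wording gives hypothalamus, and which is used here as pituitary. Correlations between replicates across unigenes were 0.899 to 0.936 in MG, 0.908 to 0.935 in MP, 0.789 to 0.905 in UG and 0.908 to 0.940 in UP. The table holds no read counts. Depth relative to the median library, read from values under 0.15 FPKM, was 0.983 to 1.08 in MG, 0.898 to 0.983 in MP, 0.821 to 1.09 in UG and 0.969 to 1.02 in UP.

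On FPKM as deposited, the number of expressed unigenes showed the opposite tissue order in males and in stage I fish. At 1 FPKM or more, MG libraries held 76558 to 83112 unigenes (mean 79679 ± 2386, SD, n = 6) and MP libraries 71685 to 77040 (mean 74132 ± 2019, SD, n = 6). UG libraries held 59271 to 73873 (mean 65092 ± 6291, SD, n = 6) and UP libraries 76226 to 78856 (mean 77596 ± 1113, SD, n = 6). The gonad held more expressed unigenes than the pituitary in 6 of 6 males and in 0 of 6 stage I fish. The difference between gonad and pituitary averaged 5547 ± 2660 unigenes in males and -12504 ± 6857 in stage I fish (SD, n = 6 fish each), and these differences did not overlap (exact permutation test over the 924 splits of the fish, two-sided, p = 0.00216, the smallest these splits can give, and 0.00216 after adjustment over the 2 library measures tested). After median-of-ratios scaling, which is explained below, the difference averaged -1544 ± 1485 unigenes in males, with the gonad higher in 1 of 6, and -6542 ± 3087 in stage I fish (SD, n = 6 fish each). The order therefore turned over only on FPKM as deposited, while a smaller gap between the stages remained (4998 unigenes, exact permutation test, two-sided, p = 0.00433). After scaling the differences of the fish overlapped, with -3604 in the lowest male and -2435 in the highest stage I fish. Within UG, fish 2 and 5 stood apart with 73873 and 71867 unigenes, against 59271 to 64347 in the 4 others.

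**Figure D1:**
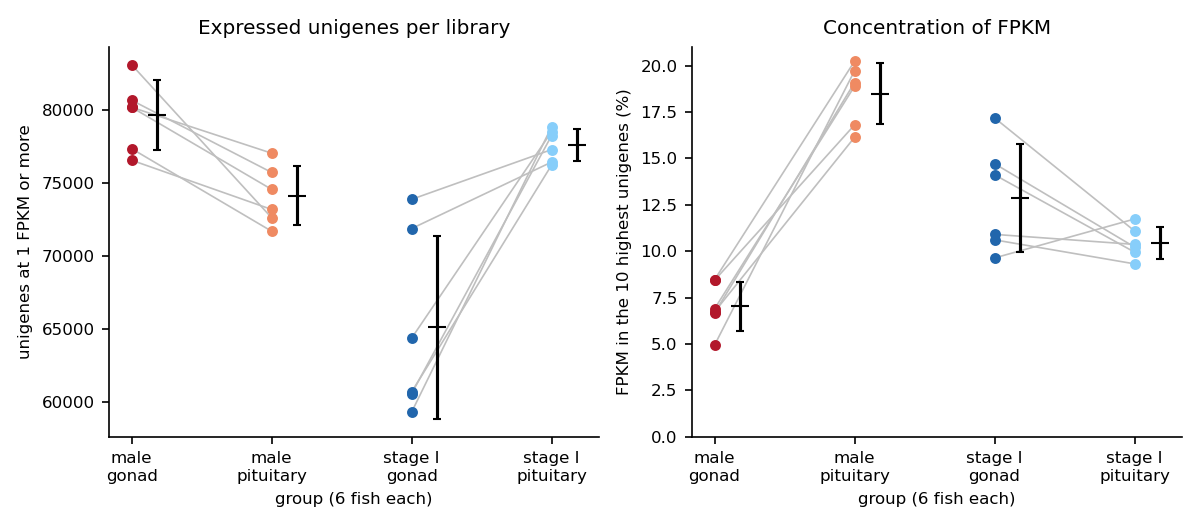
Unigenes at 1 FPKM or more (left) and the percentage of summed FPKM in the 10 highest unigenes (right) for each library, by group; points are libraries, grey lines join the tissues of a fish, and bars give mean ± SD (n = 6). The left axis does not start at 0. Lines fall from gonad to pituitary in 6 of 6 males on the left and rise on the right, while in stage I fish the lines on the left rise in all 6.

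The concentration of FPKM in the 10 highest unigenes also differed between the stages. The 10 highest unigenes of a library took 4.93 to 8.46% of its summed FPKM in MG and 16.1 to 20.2% in MP. They took 9.63 to 17.2% in UG and 9.32 to 11.7% in UP. By this measure male gonads were the least concentrated group and male pituitaries the most, with only the highest UG library within the range of the male pituitaries. The gonad was the more concentrated tissue in 0 of 6 males and in 5 of 6 stage I fish, where the ranges of the tissues overlapped. By the 100 highest unigenes UG was the most concentrated, with a mean of 35.3%, against 31.8% in MP. The difference between gonad and pituitary was -11.5 ± 2.29 percentage points in males and 2.41 ± 3.04 in stage I fish (SD, n = 6 fish each), again without overlap (exact permutation test, two-sided, p = 0.00216, adjusted over the 2 measures 0.00216). A larger share for some unigenes lowers the FPKM of all others in that library, so each count below is given both for FPKM as deposited and after median-of-ratios scaling, which divides a library by its median ratio to the mean library.

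Of 94384 unigenes tested with limma, 31661 were called higher (33.5% of those tested) and 2554 lower (2.71%) in the interaction on FPKM as deposited, at an adjusted p under 0.05. After median-of-ratios scaling, 7417 were called higher (7.86%) and 6101 lower (6.46%). The median interaction of all unigenes was 0.54 as deposited and 0.06 after scaling, so the excess of higher over lower calls depended on the scaling. Every unigene called higher after scaling was also called higher as deposited, and 0 were called with opposite signs. The unigenes called in both scalings, 7417 higher (7.86%) and 2553 lower (2.70%), are the ones described from here on, and their values are given as deposited unless said otherwise. Their median interaction was 1.59 in the higher set and -1.22 in the lower set. The higher set held 59 unigenes and the lower set 61 with an interaction of 3 or more in size.

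**Figure D2:**
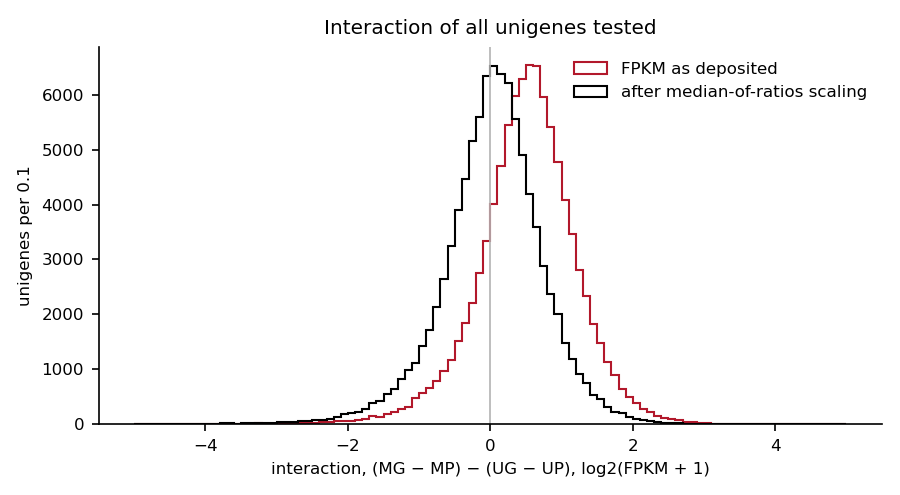
Histogram of the interaction, (MG − MP) − (UG − UP) on log2(FPKM + 1), for the 94384 unigenes tested, in steps of 0.1, with FPKM as deposited (red) and after median-of-ratios scaling (black). The distribution as deposited is centred at a median of 0.54 and the scaled one at 0.06.

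The stage I gonads 2 and 5 and the label of male fish 4 bear on these counts. Without stage I fish 2 and 5, an alternative chosen after seeing the data, 10631 unigenes were called higher and 2726 lower in both scalings, and without male fish 4 the counts were 5175 and 2077. Leaving out each of the 24 libraries in turn gave 5906 to 9662 higher and 2243 to 2918 lower in both scalings. Between 5675 and 7213 of the 7417, and between 2178 and 2406 of the 2553, were called again.

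The interaction was spread over the gonads and the pituitaries, with the gonad the larger part. The difference between the stages was larger in size in the gonad (MG − UG) than in the pituitary (MP − UP) for 73.7% of the higher set and 67.02% of the lower set, beside 59.4% of all unigenes tested. In the higher set, MG − UG had a median of 1.13 and MP − UP a median of -0.47. In the lower set the medians were -0.93 and 0.27. Over all unigenes tested the medians were 0.34 and -0.19, and the interaction is itself the first of these differences minus the second, so the opposite signs in the sets describe the selection. The median SD of log2(FPKM + 1) among replicates was 0.30 in MG, 0.28 in MP, 0.50 in UG and 0.31 in UP, so the stage I gonads were the most variable group.

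Within the stages, the tissue difference itself was called in opposite proportions. MG − MP was called higher for 33282 unigenes (35.3%) and lower for 17538 (18.6%), whereas UG − UP was called higher for 14071 (14.9%) and lower for 34285 (36.3%). After scaling, the counts were 22518 higher and 24616 lower in males and 20632 higher and 25348 lower in stage I fish. Of the 7417 unigenes in the higher set, 2585 were called gonad-higher in males and not called in stage I fish, and 748 were called gonad-higher in both with the larger difference in males. A further 1696 were called pituitary-higher in stage I fish and not called in males, and 1112 were called pituitary-higher in both with the smaller difference in males. The remaining 1276 were gonad-higher in males and pituitary-higher in stage I fish.

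The lower set had another make-up. Of its 2553 unigenes, 854 were called gonad-higher in stage I fish and not called in males, and 674 were gonad-higher in both with the smaller difference in males. Another 515 were pituitary-higher in males and not called in stage I fish, and 355 were pituitary-higher in both with the larger difference in males. The tissue order turned over in 85, and 70 were called in neither stage.

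**Figure D3:**
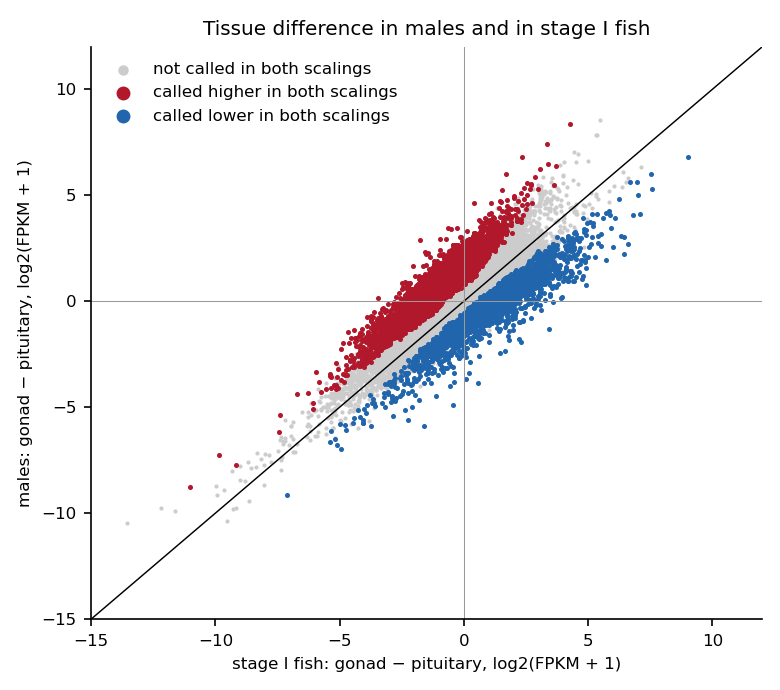
Gonad minus pituitary in males (vertical axis) against gonad minus pituitary in stage I fish (horizontal axis), both on log2(FPKM + 1), 1 point for each of 94384 unigenes; the black line marks equal differences. The 7417 unigenes called higher in both scalings (red) lie above the line and the 2553 called lower (blue) below it, and the area above 0 on the vertical axis and below 0 on the horizontal axis holds the 1276 whose order turned towards the male gonad.

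The direction of the interaction changed with the level of the unigene. Among the 51 unigenes with a mean of 1000 FPKM or more over the 4 groups, 0 were called higher and 41 lower in both scalings (80.4%), with a median interaction of -0.87. Of the 317 unigenes between 100 and 1000 FPKM, 7 were higher and 118 lower (37.2%). Of the 9204 between 10 and 100 FPKM, 491 were higher (5.33%) and 627 lower (6.81%). Of the 75789 between 1 and 10 FPKM, 6106 were higher (8.06%) and 1640 lower (2.16%). In this set, lower calls thus took the larger share at high levels and higher calls at low levels, beside 7.86% higher and 2.70% lower among all unigenes. The set holds all 7417 higher calls after scaling but only 2553 of the 6101 lower ones. Its excess of higher calls at low levels therefore partly describes this selection, and the scaled lower calls were not counted by level. Between 1 and 10 FPKM the median interaction was 0.57 as deposited and 0.08 after scaling. At 1000 FPKM or more it was -0.87 and -1.62. The 51 most abundant unigenes together took 14.9 ± 2.64% of the FPKM in MG, 26.2 ± 1.80% in MP, 26.1 ± 4.57% in UG and 17.0 ± 1.54% in UP (SD, n = 6 each).

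**Figure D4:**
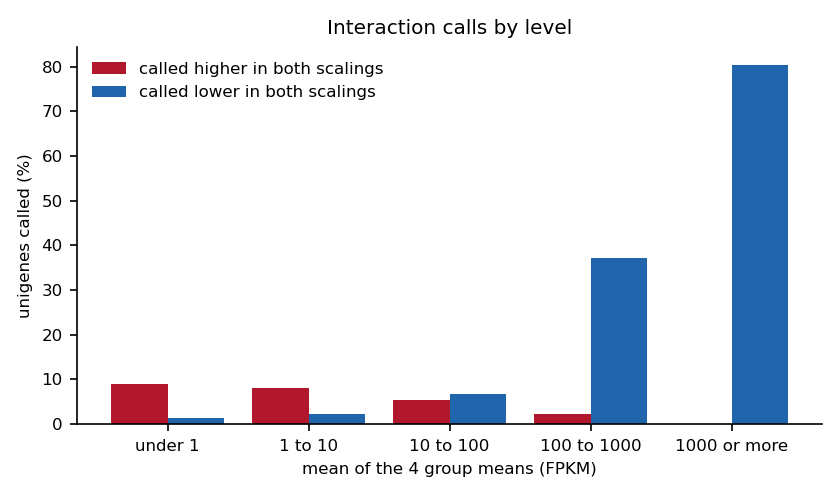
Percentage of unigenes called in the interaction in both scalings, higher (red) and lower (blue), by the mean of the 4 group means in FPKM. Lower calls reach 80.4% among the 51 unigenes at 1000 FPKM or more and 2.16% among those between 1 and 10 FPKM.

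The 20 unigenes with the highest mean FPKM over the gonads were all called lower in both scalings (20 of 20). The share was 2.70% of all unigenes and 80.4% of those with a mean of 1000 FPKM or more. Both the list and that set were chosen on FPKM that enters the interaction, so neither share is independent of the choice. The interactions of the 20 ranged between -1.92 and -0.54, with a median tissue difference of 0.84 in males and 1.72 in stage I fish. Unigene63879_All, the most abundant, had 6005, 12684 and 19095 FPKM in MG (lowest, median and highest library) and 4787, 5285 and 6149 FPKM in MP. It had 15704, 24293 and 35302 FPKM in UG and 4535, 6604 and 7990 FPKM in UP. The male gonads lay below most of the stage I gonads, with some overlap, while the pituitaries of both stages overlapped throughout. Its interaction was -0.82 ± 0.30 (SE, limma, adjusted p = 0.0345) and -1.57 ± 0.37 after scaling (adjusted p = 0.00623).

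Unigene62915_All was the second in the gonad and the third in the pituitary. It had 4644, 6795 and 9721 FPKM in MG and 7619, 10455 and 16084 FPKM in MP. It had 8310, 16787 and 21006 FPKM in UG and 6617, 9443 and 10534 FPKM in UP. The pituitary was the higher tissue in 6 of 6 males, and the gonad was the higher in 5 of 6 stage I fish, with an interaction of -1.48 ± 0.31 (SE, limma, adjusted p = 0.00105). Unigene15131_All had 4187, 4539 and 5478 FPKM in MG and 2081, 2286 and 3463 FPKM in MP. It had 4707, 6087 and 15097 FPKM in UG and 1102, 2040 and 2769 FPKM in UP. The gonad was higher in both stages, by less in males (interaction -1.03 ± 0.35, SE, limma, adjusted p = 0.0249).

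The 20 most abundant unigenes of the pituitary, 10 of which are also in the gonad list, divided into those found in both tissues and those nearly limited to the pituitary. In both scalings, 12 of the 20 were called lower and 1 higher, beside 2.70% and 7.86% of all unigenes. The 10 shared with the gonad list are all among these 12. Of the unigenes with a mean of 1000 FPKM or more, 80.4% were called lower, so the count is not particular to the pituitary list. The list took 5.19 to 8.52% of the FPKM in MG and 19.3 to 23.5% in MP. It took 9.72 to 17.4% in UG and 11.5 to 14.2% in UP. The male pituitaries therefore stood above every other group in this share. The list was chosen on the FPKM of these same pituitary libraries, which favours a high share in them.

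For 8 unigenes of the pituitary list the gonad mean was under 1% of the pituitary mean, a subset picked after their values were seen. Their summed level was 2.92 to 789.7 FPKM in MG and 3.11 to 44.4 FPKM in UG. In the pituitaries the sum was 72830 to 104113 FPKM in MP and 38116 to 49968 FPKM in UP, so male pituitaries were higher without overlap. Male fish 1 had the highest gonad sum, at 0.758% of its pituitary, and in the other males it was between 0.00384 and 0.166%. The source of these fragments in gonad libraries was not tested.

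Unigene9682_All was the most abundant of them. It had 0.908, 21.1 and 236.6 FPKM in MG and 19991, 29157 and 39249 FPKM in MP. In UG its median was 0.512 and its highest value 1.99 FPKM, and it had 14657, 17436 and 27501 FPKM in UP. The gap between the stages lay in the gonad values, where the highest male library was fish 1. Its interaction of 3.09 ± 0.88 passed the test as deposited (limma, adjusted p = 0.00939) and missed it after scaling (2.51 ± 0.86, adjusted p = 0.0503). CL4441.Contig2_All, second in the pituitary list, had 9961, 14091 and 24659 FPKM in MP and 3090, 5910 and 8257 FPKM in UP, and its interaction of -0.84 ± 1.06 did not pass (limma, adjusted p = 0.549). Only Unigene35458_All of the 8 was called in both scalings, with 0.127 to 6.48 FPKM in MG, 733.7 to 1738 FPKM in MP, 0 to 0.123 FPKM in UG and 1492 to 3323 FPKM in UP (interaction 2.25 ± 0.49, limma, adjusted p = 0.00161).

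The called unigenes were sorted by the tissue difference in each stage and by the stage difference in each tissue. Unigenes that turned up were gonad-higher in males and pituitary-higher in stage I fish, and those that turned down did the reverse. Gonad-side unigenes had a stage difference under 0.5 in size in the pituitary, and pituitary-side unigenes had one under 0.5 in the gonad. These limits were applied to FPKM as deposited only. Since they apply to log2(FPKM + 1), unigenes near 1 FPKM or below can pass them even where their FPKM differs between the stages. They therefore do not show that the other tissue was unchanged. Over all unigenes tested, scaling moved the median stage difference from 0.34 to 0.07 in the gonad and from -0.19 to 0 in the pituitary. Membership of the gonad-side and pituitary-side patterns can therefore change with scaling, and their sizes after scaling were not counted. Each of these patterns is a selection on the interaction, so the values below describe it. The unigenes named are the most extreme of their pattern among those with a mean of 10 FPKM or more in at least 1 group and with tissue differences that do not overlap between the 6 males and the 6 stage I fish, which held for 14316 (15.2%) of all unigenes tested.

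Turned-up unigenes numbered 1276, with median levels of 4.62 FPKM in MG, 2.04 in MP, 1.59 in UG and 3.64 in UP. For 305 of them the tissue differences of both stages were also called after scaling. Without stage I fish 2 and 5 the numbers were 2502 and 593, and without male fish 4 they were 882 and 198. CL23664.Contig15_All had the most positive interaction of the named unigenes. It had 160.6, 249.8 and 523.4 FPKM in MG and 29.4, 33.7 and 45.4 FPKM in MP. It had 2.73, 5.27 and 6.32 FPKM in UG and 17.7, 18.7 and 23.0 FPKM in UP. The 4 groups did not overlap, with the male gonads on top and the stage I gonads at the bottom. The interaction was 4.65 ± 0.31 (SE, limma, adjusted p = 4.5e-09) and 3.95 ± 0.33 after scaling.

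Unigene53800_All had 8.68, 13.4 and 57.0 FPKM in MG and 2.00, 2.41 and 3.00 FPKM in MP. It had 1.18, 2.35 and 30.8 FPKM in UG and 5.91, 14.9 and 17.9 FPKM in UP. In the pituitary every male was below every stage I fish, while in the gonad the 30.8 FPKM of stage I fish 5 fell among the males. The interaction was 3.85 ± 0.66 (SE, limma, adjusted p = 0.000237), and with stage I fish 5 and 6 only it no longer passed after scaling (adjusted p = 0.0650). The next of this pattern, CL11074.Contig1_All and Unigene42063_All, had interactions of 3.40 and 3.26. The second of these was not called pituitary-higher in stage I fish after scaling, and its scaled interaction missed the threshold without male fish 4 (limma, adjusted p = 0.0517).

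Turned-down unigenes numbered 85, all of which kept both tissue calls after scaling, and as deposited 133 passed with the fish as a replicate block. Scaling lowered the median MG − MP of all unigenes tested from 0.24 to -0.03. It raised the median UG − UP from -0.26 to -0.04. It thus moved turned-down unigenes further in their direction and turned-up ones against theirs, so keeping all 85 is no measure of stability. With scaling alone, 441 turned down and 305 turned up, so the excess of turned-up unigenes held as deposited and was reversed after scaling. Median levels of the 85 were 2.47 FPKM in MG, 5.95 in MP, 15.1 in UG and 5.47 in UP. CL1598.Contig1_All had the most negative interaction of the named unigenes. It had 0.639, 1.15 and 4.40 FPKM in MG and 1.96, 4.94 and 9.85 FPKM in MP. It had 13.9, 86.2 and 247.2 FPKM in UG and 3.25, 4.19 and 8.72 FPKM in UP. Every stage I gonad exceeded every library of the 3 other groups, whereas the pituitaries of the stages overlapped. The interaction was -4.72 ± 0.74 (SE, limma, adjusted p = 0.000114). This unigene is also the most extreme of the gonad-side lower pattern.

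Unigene81175_All was almost missing from male gonads, with a median listed at 0 and a highest value of 0.449 FPKM in MG, and it had 0.529, 3.05 and 13.99 FPKM in MP. It had 17.5, 43.7 and 110.5 FPKM in UG and 5.30, 7.86 and 17.5 FPKM in UP. The stage I gonads stood above all male libraries, and the pituitaries overlapped. The interaction was -4.20 ± 0.61 (SE, limma, adjusted p = 6.56e-05). In the hypothalamus it was lower in males as well (log2 difference -2.37, limma, adjusted p = 0.005). CL196.Contig12_All and CL10677.Contig5_All followed with -4.02 and -3.99.

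Gonad-side higher unigenes were the largest of the patterns, with 3830 members. Their median level was 4.67 FPKM in MG and 1.01 in MP, and 1.10 in UG and 1.32 in UP. Leaving out single libraries gave 2884 to 5323 members, the highest number without the stage I gonad of fish 5, and without stage I fish 2 and 5 there were 6034. Without male fish 4 there were 2415, and with stage I fish 5 and 6 only 2373. CL284.Contig2_All had 153.4, 220.0 and 484.7 FPKM in MG and 0.558, 0.983 and 2.33 FPKM in MP. It had 0.1999, 13.8 and 39.5 FPKM in UG and 0.640, 1.08 and 1.68 FPKM in UP. Male gonads stood above stage I gonads without overlap, and stage I gonads spread widely, from below to far above their pituitaries. The interaction was 4.47 ± 0.70 (SE, limma, adjusted p = 0.000114).

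CL23301.Contig15_All had 74.6, 126.6 and 203.8 FPKM in MG and 0.640, 1.01 and 1.29 FPKM in MP. It had 0.552, 5.03 and 20.1 FPKM in UG and 0.653, 0.833 and 1.27 FPKM in UP. The male gonads again exceeded every library of the 3 other groups, and the pituitaries of the stages overlapped (interaction 4.33 ± 0.58, SE, limma, adjusted p = 3.23e-05). The next, CL14228.Contig1_All and CL11434.Contig1_All, had interactions of 4.19 and 3.71. CL14228.Contig1_All had 15.5 to 44.8 FPKM in MG, its median was listed at 0 in MP and UG, and it was listed at 0 in every UP library.

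Gonad-side lower unigenes numbered 1364, with a median of 3.59 FPKM in MG and 2.61 in MP, and 12.6 in UG and 2.52 in UP. Beside CL1598.Contig1_All, Unigene58612_All had 2.33, 4.47 and 17.5 FPKM in MG, and at most 0.709 FPKM in MP. It had 18.01, 118.5 and 237.2 FPKM in UG, and at most 0.395 FPKM in UP. It was a gonad unigene in both stages, and every stage I gonad was above every male gonad. The interaction was -4.22 ± 0.59 (SE, limma, adjusted p = 4.75e-05). Unigene74558_All and CL196.Contig12_All followed with -4.11 and -4.02, and the first of them had 8.54 to 171.5 FPKM in UG against at most 4.96 FPKM in MG.

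Pituitary-side higher unigenes numbered 1045, and here the male pituitary was the lower. With the libraries of male fish 4 exchanged there were 593, and with stage I fish 5 and 6 only 486. Their median level was 0.554 FPKM in MG and 0.311 in UG, so many were near 0 in both gonads, and 1.79 in MP and 5.62 in UP. CL14901.Contig4_All had at most 0.896 FPKM in MG and 0.515 in UG. It had 0.252, 3.21 and 12.7 FPKM in MP and 19.95, 30.6 and 39.7 FPKM in UP. Male pituitaries were below stage I pituitaries without overlap (interaction 3.22 ± 0.64, SE, limma, adjusted p = 0.000821), and with stage I fish 5 and 6 only the scaled interaction no longer passed (adjusted p = 0.0680). Unigene7022_All had at most 1.67 FPKM in MG and 1.39 in UG, and it had 0.962, 1.87 and 2.44 FPKM in MP and 7.68, 14.1 and 22.3 FPKM in UP. The pituitaries did not overlap here either (interaction 2.82 ± 0.33, SE, limma, adjusted p = 9.86e-06). CL20689.Contig1_All and Unigene68575_All followed with 2.81 and 2.75. The first of them had 16.3 to 29.5 FPKM in MP against 107.2 to 295.2 FPKM in UP.

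Pituitary-side lower unigenes numbered 730, with the male pituitary the higher. With the libraries of male fish 4 exchanged there were 459, and with stage I fish 5 and 6 only 281. Their median level was 1.13 FPKM in MG and 1.36 in UG, and 5.12 in MP and 1.82 in UP. CL12552.Contig1_All stayed under 5 FPKM in the gonads of both stages. It had 23.3, 43.4 and 76.0 FPKM in MP and 1.24, 3.46 and 9.03 FPKM in UP, and the pituitaries did not overlap (interaction -3.38 ± 0.47, SE, limma, adjusted p = 4.52e-05). Unigene65054_All had at most 0.373 FPKM in MG and 1.56 in UG. It had 38.2, 57.0 and 80.4 FPKM in MP and 3.51, 5.48 and 13.6 FPKM in UP, so it was higher in the pituitary than in the gonad in both stages (interaction -3.35 ± 0.34, SE, limma, adjusted p = 2.64e-06). In stage I hypothalamus it had 0.470, 3.09 and 4.97 FPKM, which overlaps the stage I pituitary. CL1907.Contig2_All and Unigene1067_All followed with -3.34 and -2.87. The first of them had 0.535 to 1.17 FPKM in MG against 0.144 to 0.379 FPKM in UG, so its low gonad values did not overlap between the stages.

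**Figure D5:**
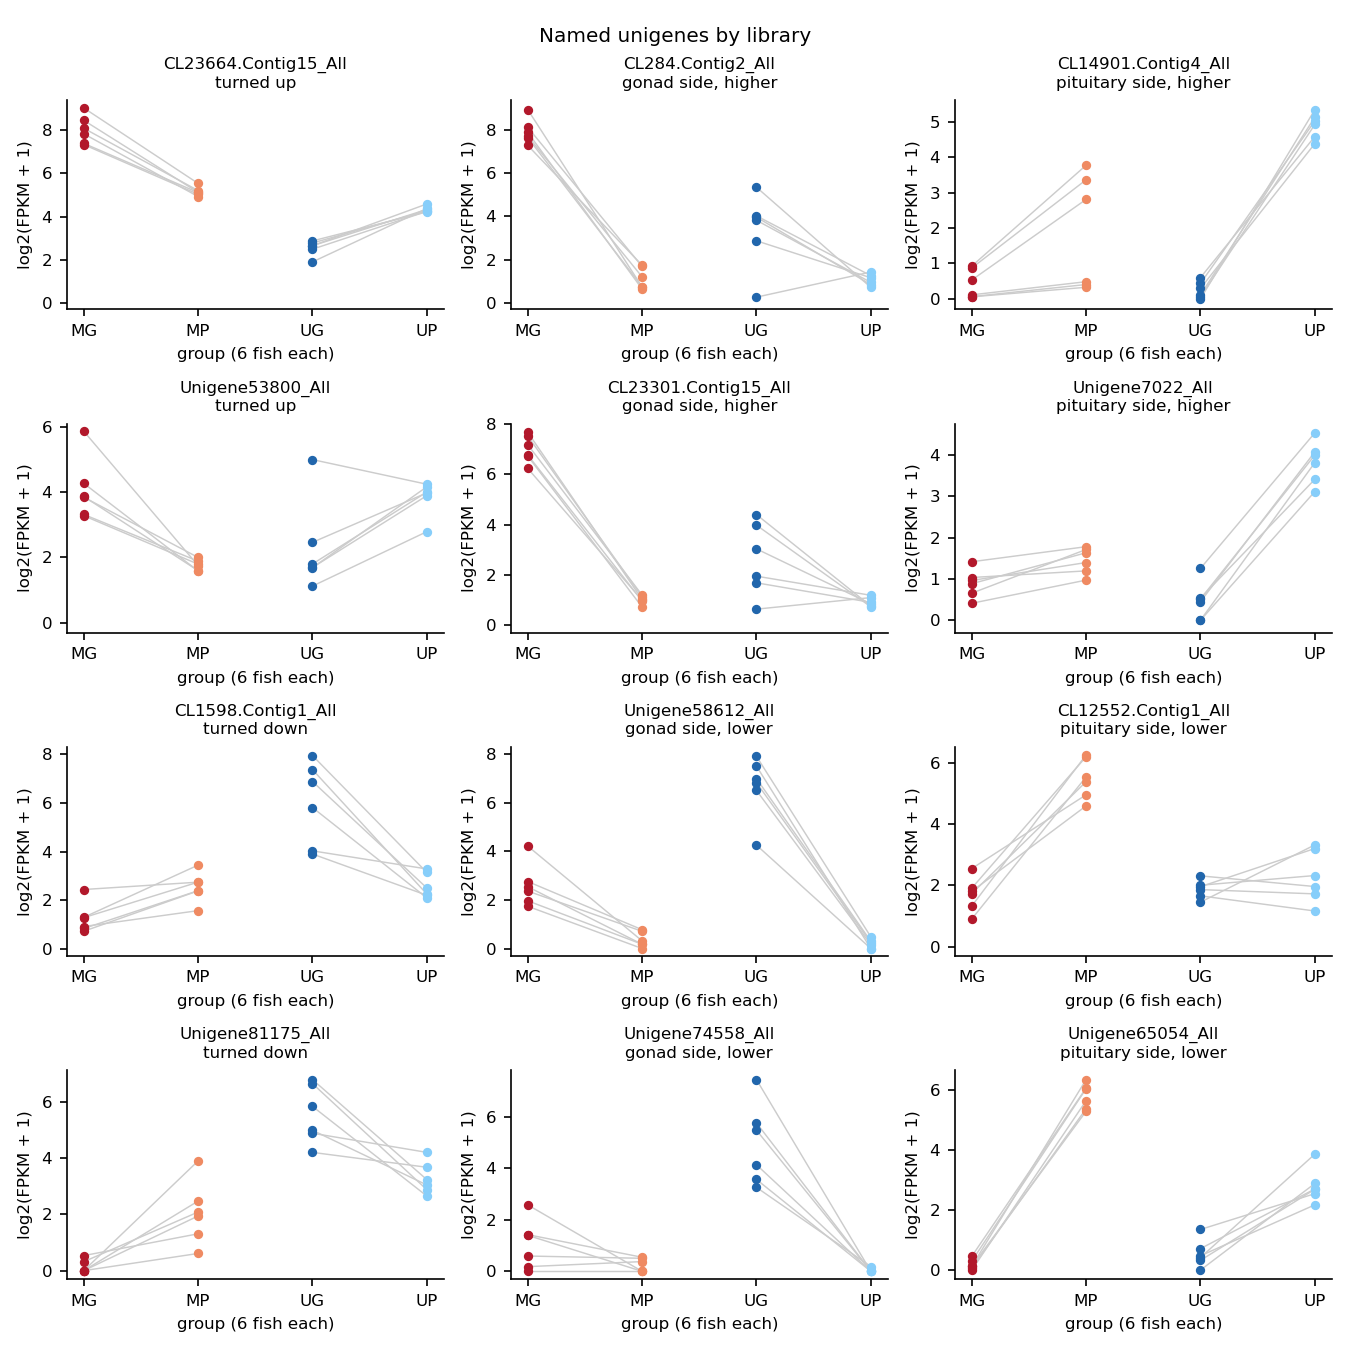
Values of 12 unigenes, the first 2 of each pattern not already drawn for another pattern, in the 24 libraries on log2(FPKM + 1); points are libraries in the groups MG, MP, UG and UP, and grey lines join the tissues of a fish. In CL23664.Contig15_All the lines run down from gonad to pituitary in males and up in stage I fish, and in CL1598.Contig1_All the reverse.

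The hypothalamus libraries of the same fish, which the interaction did not use, gave a further readout of these unigenes. Between male (MH) and stage I hypothalamus (UH), 5.48% of the 94384 unigenes were called higher and 7.98% lower with limma. Members that did not pass the filter on low values there count as not called. Of the 1045 pituitary-side higher unigenes, whose level is lower in male pituitaries, 927 passed the filter, 6 were called higher and 318 lower in the male hypothalamus (30.4% of members lower). Of the 730 pituitary-side lower unigenes, 468 passed the filter, 146 were called higher (20% of members) and 7 lower. Most members were not called in the hypothalamus. Among those called, most had the direction of the pituitary, and in both patterns the share called in that direction was above that of all unigenes. Among the gonad-side unigenes, 131 of 3830 were higher and 79 lower in the first pattern, and 57 of 1364 were higher and 111 lower in the second (8.14% of members lower), close to or below the shares of all unigenes.

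Of the 8 named pituitary-side unigenes, 3 were called in the hypothalamus, each in the direction of the pituitary. CL20689.Contig1_All had 51.5, 59.8 and 86.2 FPKM in MH and 174.1, 193.2 and 322.2 FPKM in UH, without overlap (log2 difference -1.70, limma, adjusted p = 0.000102). Unigene7022_All had 4.23, 6.88 and 9.92 FPKM in MH and 11.4, 16.1 and 19.6 FPKM in UH (-1.13, adjusted p = 0.00227). Both were also lower in male pituitaries. CL1907.Contig2_All had 7.21, 8.95 and 12.4 FPKM in MH and 3.93, 5.15 and 6.29 FPKM in UH (0.73, adjusted p = 0.00777), and was higher in male pituitaries. The others did not pass. CL12552.Contig1_All and Unigene65054_All, both higher in male pituitaries, had negative differences in the hypothalamus (-0.49 and -1.02, limma, adjusted p = 0.0971 and 0.0699). Unigene68575_All had -0.52 and Unigene1067_All 0.35 (limma, adjusted p = 0.129 and 0.389), and CL14901.Contig4_All was not kept by the filter.

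The 3 females in stage II gave a second tissue contrast in libraries outside the interaction, FG − FP, with fish 2 and 3 sequenced on another platform than the males. The study also reports significant differences among its female replicates, most of all in the hypothalamus. It proposes as a possible reason that these fish were of different families. Of the 94384 unigenes, 5.68% were called higher and 21.5% lower in the female gonad, and after scaling 10.9% and 16.4%. Of the 3830 gonad-side higher unigenes, 1151 passed the filter, and 416 were gonad-higher in females (10.9% of members) and 215 lower. After scaling, 541 were higher and 146 lower. Of the 1364 gonad-side lower unigenes, 820 passed, and 64 were higher and 427 lower in the ovary relative to the female pituitary (31.3% of members), or 112 and 270 after scaling. Of the 85 turned-down unigenes, 67 passed, and 3 were higher and 40 lower (47.1% of members), or 6 and 35 after scaling. FG − FP is a tissue difference within females, so its sign cannot be set against that of the interaction. The share called higher of the gonad-side higher unigenes was above that of all unigenes. So was the share called lower of the gonad-side lower and turned-down ones, in libraries where more unigenes were called lower than higher. For the gonad-side lower unigenes after scaling it was 19.8% beside 16.4%. Of these, 820 of 1364 passed the filter, against 49335 of the 94384. Among the unigenes that passed, 270 of 820 were lower after scaling beside 15454 of 49335, so this share was near that of all unigenes. Of the 1276 turned-up unigenes 419 passed, and 79 were higher (6.19% of members) and 107 lower, or 128 (10.03%) and 73 after scaling. With members that did not pass counted as not called, the shares called higher were near those of all unigenes, and the shares called lower were below them. A smaller part of these members passed than of all unigenes. Among those that passed, 79 of 419 were higher beside 5361 of 49335, and 128 beside 10310 after scaling, so this share was above that of all unigenes. The lower calls, 107 of 419 beside 20278 of 49335, and 73 beside 15454 after scaling, stayed below. Of the 1045 pituitary-side higher unigenes, 332 passed, and 6 were higher and 260 lower (24.9% of members). As a set these unigenes were pituitary-higher in the other fish too, with a median tissue difference of -0.66 in males and -1.98 in stage I fish. Of the 730 pituitary-side lower unigenes, 532 passed, and 16 were higher and 352 lower (48.2% of members), or 40 and 279 after scaling. In both pituitary-side patterns the share called lower was also above that of all unigenes.

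CL284.Contig2_All had 26.1, 26.5 and 37.6 FPKM in FG and 0.156, 0.232 and 1.40 FPKM in FP, gonad-higher as in males (log2 difference 4.35, limma, adjusted p = 0.000136). The other named gonad-side higher unigenes were not kept by the filter in females. CL23301.Contig15_All had at most 0.509 FPKM in FG, and CL14228.Contig1_All and CL11434.Contig1_All were listed at 0 in every FG library. Of the gonad-side lower pattern, Unigene58612_All was gonad-higher in females (2.28, limma, adjusted p = 0.00221) and CL196.Contig12_All gonad-lower (-2.14, adjusted p = 0.0285). CL23664.Contig15_All, which turned up in males, had 1.03, 2.08 and 15.6 FPKM in FG and 5.56, 12.7 and 18.7 FPKM in FP, values that overlap and did not pass (-1.36, limma, adjusted p = 0.154). CL1598.Contig1_All had at most 0.0724 FPKM in FG and 6.99 to 7.96 FPKM in FP (-3.02, limma, adjusted p = 0.000221), the order seen in males. The levels of these unigenes in females stand beside those of males without a test between the sexes.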

How the data were processed

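RNA of hypothalamus, pituitary and gonad was sequenced with a stranded mRNA protocol. After filtering (SOAPnuke), the authors pooled the reads of all 45 libraries for assembly (Trinity, TGICL), mapped each library to the unigenes (SOAP2) and estimated FPKM (RSEM). The deposited table holds FPKM of 121952 unigenes (64643 of them contigs of clusters), and 0 sample columns were left unused. Similar contigs of a cluster may share reads, so the split of FPKM among them is uncertain. No read counts were used here, so no counting interval is given, and a value of 0 is only called listed at 0.

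The interaction and its parts were fitted with limma 3.58.1 in R 4.3.3 (lmFit, contrasts.fit, eBayes, trend on) for the 24 libraries on log2(FPKM + 1), keeping unigenes that reached 1 FPKM in 6 libraries or more, Benjamini-Hochberg adjustment over all 94384 and a threshold of 0.05. The pseudocount of 1 understates changes of low unigenes. The scaled fit divided each library by its median-of-ratios factor (0.78 to 1.29). MH and UH (12 libraries) and FG and FP (6 libraries) were fitted apart in the same way, with a filter of 6 and 3 libraries. The fit was tested on simulated data with independent noise of the same spread in all groups. The simulation had no shift of all unigenes and no effect of the fish, so it does not cover these features of the data. Library values were compared with exact permutation tests in Python 3.11.15 with NumPy 2.4.6 and pandas 2.3.3, and figures were drawn with Matplotlib 3.10.9.

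Both tissues come from the same fish, so fish numbers pair the libraries within a stage. Deviations from the group means of a fish's gonad and pituitary correlated at 0.24 to 0.33 in males and 0.04 to 0.25 in stage I fish. The study's own comparisons were not paired, so the fit without the block is given and the block is an alternative. The separation of animals is as the study gives it, 1 library for each tissue of a fish.

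The members, patterns and lists were chosen with earlier results of these data known. In each of 6 patterns the 4 most extreme unigenes called in both scalings are named, with a mean of 10 FPKM or more in at least 1 group, no overlap of the tissue differences of the fish and 1 contig of a cluster, the first 2 in full. The 3 most abundant unigenes of each tissue are added. Unigene35458_All, the 8 pituitary unigenes and the division by level were chosen after their values were seen. Marker lists written by gene name could not be used, since no gene names came with the unigenes used here, and no sequence is printed for the same reason.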

Additional observations from a re-analysis of the deposited data

Results flagged for a closer look

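The tissue difference differed between males and stage I fish in both library measures: the gonad minus pituitary difference in expressed unigenes by 18051, and that in the share of the 10 highest unigenes by -13.9 percentage points. It also differed in each of the 22 named unigenes, which were chosen for it. The interactions on log2(FPKM + 1) were 4.65 in CL23664.Contig15_All, 3.85 in Unigene53800_All, 3.40 in CL11074.Contig1_All and 3.26 in Unigene42063_All among those that turned up. They were -4.72 in CL1598.Contig1_All, -4.20 in Unigene81175_All, -4.02 in CL196.Contig12_All and -3.99 in CL10677.Contig5_All among those that turned down. On the gonad side they were 4.47 in CL284.Contig2_All, 4.33 in CL23301.Contig15_All, 4.19 in CL14228.Contig1_All, 3.71 in CL11434.Contig1_All, -4.22 in Unigene58612_All and -4.11 in Unigene74558_All. On the pituitary side they were 3.22 in CL14901.Contig4_All, 2.82 in Unigene7022_All, 2.81 in CL20689.Contig1_All and 2.75 in Unigene68575_All, and -3.38 in CL12552.Contig1_All, -3.35 in Unigene65054_All, -3.34 in CL1907.Contig2_All and -2.87 in Unigene1067_All.

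Single libraries stood apart from the 5 others of their group in 6 of 96 groups examined. Chance alone gives about 1 in 20, a rate that does not hold for groups with most or all libraries listed at 0. Unigene53800_All had 30.8 FPKM in the gonad of stage I fish 5, against 1.18 to 4.50 in the others, and 5.91 FPKM in the pituitary of stage I fish 1, against 13.8 to 17.9. CL1598.Contig1_All had 4.40 FPKM in the gonad of male fish 2, against 0.639 to 1.44. CL11434.Contig1_All had 12.6 FPKM in the gonad of male fish 3, against 42.8 to 72.7. CL14228.Contig1_All had 0.241 FPKM in the pituitary of male fish 2 and Unigene74558_All 0.138 FPKM in the pituitary of stage I fish 1, where the others of the group were listed at 0. In such a group any value above 0 is flagged, however small. A group listed at 0 throughout cannot be flagged but counts among the 96.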

How the results depend on the processing

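Median-of-ratios scaling moved the 31661 higher calls to 7417 and the 2554 lower calls to 6101. The higher count was 18958 with an absolute log2 difference of 1 or more and 18174 with stage I fish 5 and 6 only, and with these fish only the scaled count was 4671. With a replicate block by fish, 34828 were called higher and 3242 lower, and 8708 and 7672 after scaling. The blocked fits called 6977 of the 7417 and 2472 of the 2553 again in both scalings and changed no call of a named unigene. Rescaling to the same summed FPKM, a pseudocount of 0.1, no filter, 1 fit over all 9 groups, the exchange of male fish 4 with its hypothalamus, stage I fish 1 to 4 only and sums over clusters gave 23392 to 35948 higher and 2003 to 2694 lower calls. Without single libraries there were 27908 to 35456 higher and 2246 to 2918 lower calls, after scaling 5906 to 9662 and 5046 to 7434, and without single fish 24929 to 33741 and 2022 to 2647. The difference between the stages in expressed unigenes was 18051, and 16635 to 19868 without single fish. At a threshold of 0.1 FPKM it was 10524 and at 5 FPKM 13499, and after scaling it was 4998 (exact permutation p = 0.00433), where the gonad held more unigenes in 1 of 6 males. The share in the 10 highest unigenes differed by -13.9 percentage points, and by -14.8 to -13.1 without single fish. Of 1703 interactions of the 22 named unigenes under these alternatives, 3 missed the threshold and 0 changed sign. These unigenes were chosen for extreme interactions called in both scalings and without overlap between the fish, so this count is no measure of stability. Those that exclude single libraries after scaling, male fish 4 or subsets of stage I fish after scaling, and stage I fish 2 and 5 were chosen after seeing the data. Where the cause of a change is not built into the alternative, the cause was not tested. The table holds no read counts, so the counting error of low unigenes was not estimated.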

Other observations

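Contigs of a cluster are similar sequences, often forms or near copies of the same gene. Of 13835 clusters with at least 2 contigs tested, 2628 had a contig called in both scalings and 32 (0.231%) had contigs called in opposite directions. In 2 of the 32, picked after their values were seen, both contigs met the level and overlap conditions set for named unigenes. In CL163, Contig11 (CL163.Contig11_All) had 16.5 to 24.3 FPKM in MG, 5.97 to 8.42 in MP, 4.38 to 9.73 in UG and 8.16 to 12.7 in UP, with an interaction of 1.75. CL163.Contig9_All had 4.62 to 6.43 FPKM in MG, 3.20 to 5.36 in MP, 11.05 to 136.0 in UG and 3.71 to 7.48 in UP, with an interaction of -1.65. The first was highest in male gonads and the second in stage I gonads. In CL4641, CL4641.Contig2_All had 9.12 to 17.6 FPKM in MG, 19.2 to 51.1 in MP, 0.130 to 7.25 in UG and 25.1 to 41.0 in UP, with an interaction of 2.34. CL4641.Contig3_All had 112.4 to 254.8 FPKM in MG, 118.1 to 197.1 in MP, 155.9 to 291.5 in UG and 93.2 to 148.8 in UP, with an interaction of -0.70. The gonad ranges of CL4641.Contig3_All overlapped between the stages. How reads were split between contigs was not tested.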
